A study of Mus musculus with 10 samples.

Results

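The genes described here are the members of the mouse Hox clusters, taken as every gene whose array symbol is Hoxa, Hoxb, Hoxc or Hoxd followed by a number alone. There were 37 such genes, each measured by 1 probe set (a group of oligonucleotides read out as 1 value), of 19938 genes with a probe set carrying a single symbol. They made up 10 genes of the Hoxa cluster and 9 each of Hoxb, Hoxc and Hoxd. Hoxb8 was listed only on a probe set with several symbols and was not analysed here. The members were divided by paralog group, the number in the symbol, into 14 genes of groups 1 to 5 and 23 genes of groups 6 to 13.

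The samples were whole brains of male C57BL/6J mice, an inbred laboratory strain, taken at postnatal day 70. Their mothers drank either water with 10% ethanol or water only from gestational day 0 to postnatal day 10 of the pups. In experiment 1 each array held pooled RNA of 3 mice, with 2 ethanol and 2 control arrays (12 mice). In experiment 2 each array held RNA of 2 mice, with 3 ethanol and 3 control arrays (12 mice). The sources used here do not say which pools shared litters. The p-values here rest on how much pools of a group differed. A whole brain mixes all regions, and fewer cells of a type cannot be told apart from less RNA per cell.

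Hox genes encode homeodomain transcription factors that give cells along the body axis their position. They lie in 4 clusters in which the order of the genes follows the order of their expression along the embryo: low paralog numbers begin in the hindbrain, and high numbers are used in the trunk, the limb buds and the spinal cord. Retinoic acid and Cdx proteins switch the clusters on, Polycomb proteins keep unused genes silent, and Pbx and Meis proteins bind DNA together with Hox proteins. In the adult brain, Hox transcripts of low paralog number are known from nuclei of the medulla and pons, while the forebrain and midbrain have almost none. The comparison asked whether exposure around birth left a difference in these genes, and whether the hindbrain and trunk ranges of the clusters differed in it.

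The clusters also hold microRNA genes, and their mature sequences are shown because the 2 families have members in several clusters and share a seed, the bases 2 to 8 that pair with targets. They are RefSeq's (GRCm38.p6), with the seed in capitals. Mir10b lies on the plus strand of chromosome 2 (mature 5p arm at chr2:74726074-74726096) next to Hoxd4. Mir10a lies on the plus strand of chromosome 11 (chr11:96317186-96317208) next to Hoxb4. Mir196a-1 lies next to Hoxb9 (chr11:96265187-96265208, plus strand) and Mir196b next to Hoxa10 (chr6:52230129-52230150, minus strand).
miR-10a-5p: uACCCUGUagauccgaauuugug
miR-10b-5p: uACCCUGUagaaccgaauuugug
miR-196a-5p: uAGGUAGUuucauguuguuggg
miR-196b-5p: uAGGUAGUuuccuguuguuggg

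The windows of 250 bases upstream of the starts of Hoxd3 and Hoxd4 are shown because these neighbours gave the lowest and the highest difference over both experiments among the 37 genes (values below). Other members came close: Hoxd12 differed by 0.14, as Hoxd4 did, and Hoxa5 by -0.10 against -0.11 for Hoxd3. A link of motifs to these differences was not tested. Both windows lie on the plus strand of chromosome 2 in RefSeq's GRCm38.p6 assembly, Hoxd3 at chr2:74711743-74711992 and Hoxd4 at chr2:74721728-74721977. Capitals mark 2 motifs, searched on both strands: AGGTCA, the core half-site of retinoic acid receptors, here read on the minus strand as its reverse complement, and TTTATG, a core of Cdx binding sites.
Hoxd3: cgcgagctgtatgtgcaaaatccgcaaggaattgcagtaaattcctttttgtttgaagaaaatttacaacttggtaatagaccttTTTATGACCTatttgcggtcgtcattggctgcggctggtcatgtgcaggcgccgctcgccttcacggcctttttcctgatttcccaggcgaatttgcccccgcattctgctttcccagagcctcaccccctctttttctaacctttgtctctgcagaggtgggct
Hoxd4: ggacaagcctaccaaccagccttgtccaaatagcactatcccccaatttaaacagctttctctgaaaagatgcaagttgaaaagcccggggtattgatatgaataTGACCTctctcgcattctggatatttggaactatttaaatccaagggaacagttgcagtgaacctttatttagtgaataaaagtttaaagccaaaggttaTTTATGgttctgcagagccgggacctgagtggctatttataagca

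In the Hoxd3 window the motifs overlap, with TTTATG beginning 165 bases and the AGGTCA match 161 bases before the start. In the Hoxd4 window they are apart, at 45 and 145 bases before the start. Of the 24 windows of 22 Hox genes (21 of them members), 2 held both motifs, those of Hoxd3 and Hoxd4, and of all 32841 RefSeq windows of this length 1.71% did. AGGTCA alone was in 6 of the 24 Hox windows (25%, against 14% of all windows), TTTATG in 5 (20.8% against 10.8%) and TGATNNAT, a core of joint Hox and Pbx sites, in 4 (16.7% against 7.69%). Hox windows were rich in CG dinucleotides, with a median of 12.5 per window against 6 over all windows, and 19 of the 24 lay above that overall median. The Hoxd3 window held 12 and the Hoxd4 window 3. A match of letters is a description and does not show that a factor binds there.

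All 37 Hox genes were dim in these whole brains. Their levels, as means of the deposited log2 values over the 10 arrays, ran from 4.92 for Hoxc11 to 6.83 for Hoxb3, with a median of 5.53, and all 37 lay below 7.36, the median of the 21789 single-symbol probe sets. For scale, 254 probe sets of genes that brain is not known to use (taste, trace amine and vomeronasal receptors and hair keratin-associated proteins) had a median of 5.84 and a 95th percentile of 7.09. No Hox gene was above that percentile, and 6 of the 37 were above the median. These were Hoxb3 (6.83), Hoxd10 (6.82), Hoxb9 (6.55), Hoxa4 (6.35), Hoxb1 (6.17) and Hoxb7 (5.97). Of the markers of the labelled tissue (neurons, glia and vessels), 10 of 11 measured were above the 95th percentile, and the brightest was at 13.3. At this signal the arrays do not tell a low Hox transcript level from none, and a difference of a Hox gene is a difference of a signal near the floor.

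The hindbrain range was slightly brighter than the trunk range. The median of the mean levels was 5.71 for the 14 genes of groups 1 to 5 (5.32 for Hoxd4 to 6.83 for Hoxb3) and 5.47 for the 23 genes of groups 6 to 13 (4.92 for Hoxc11 to 6.82 for Hoxd10). By cluster the medians were 5.55 for Hoxa, 5.79 for Hoxb, 5.42 for Hoxc and 5.48 for Hoxd. Probe sets differ in their response to the same amount of RNA, so these levels describe probe sets and give no order of transcript amounts. Hoxd10, a gene of limb and lumbar spinal motor neurons, was the second brightest member, and markers of spinal motor neurons gave no level above the 95th percentile (0 of 8 measured), as for the Hox genes.

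**Figure D1:**
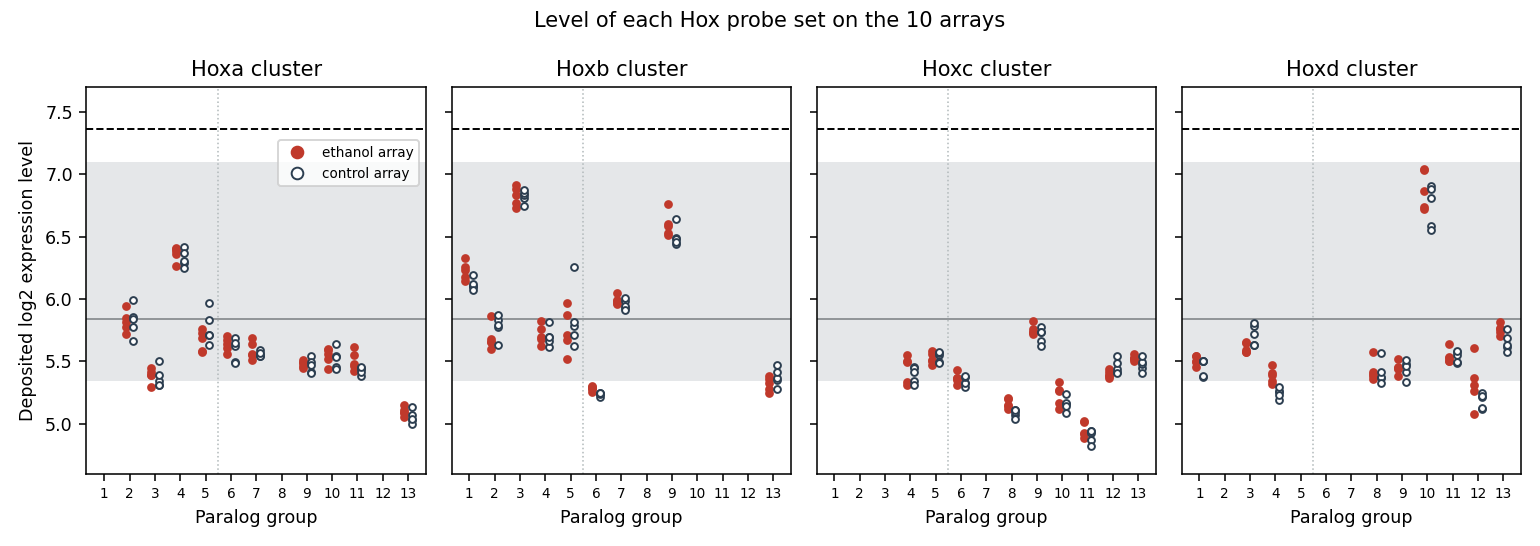
Deposited log2 level of each Hox probe set (vertical axis) by paralog group (horizontal axis), 1 panel per cluster, with 5 ethanol arrays as filled and 5 control arrays as open points. The grey band runs from the 5th to the 95th percentile (5.35 to 7.09) of 254 probe sets of genes not used in brain, the grey line is their median (5.84) and the dashed line the median of all gene probe sets (7.36). The 37 mean levels lie below the dashed line and below the top of the band.

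Most members varied as little between arrays of a group as other dim probe sets did. The SD within groups (pooled over the 4 groups) had a median of 0.0743 in the hindbrain range and 0.0646 in the trunk range, against 0.0756 in the dimmest 25% of the gene probe sets (5448, of mean level up to 5.87, which held 31 of the 37 members). A few members were much more variable. Hoxb5, a gene of the caudal hindbrain and cervical cord, had an SD of 0.227, higher than 99.1% of the dimmest 25%, followed by Hoxd10 (0.187, 98.3%) and Hoxd12 (0.160, 96.6%). Hoxb6 (0.0152) and Hoxc5 (0.0167) varied least. On the experiment 2 control arrays, Hoxb5 was at 5.62, 5.82 and 6.26, and on the ethanol arrays at 5.52, 5.87 and 5.67. Control array 3 was thus the highest of the 6 by far, and the groups overlapped.

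No Hox gene differed between ethanol and control arrays past an adjusted p of 0.05 (limma with Benjamini-Hochberg adjustment over 21789 probe sets): 0 of 37 over both experiments, in experiment 1, in experiment 2 and for the difference between the experiments. The background in each of these comparisons was 0% called. The lowest adjusted p among the members was 0.311 over both experiments, 0.597 in experiment 1, 0.416 in experiment 2 and 0.774 for the difference. At an unadjusted p under 0.05, 4 members passed over both experiments (10.8%, background 12.4%), 0 in experiment 1 (background 8.95%), 2 in experiment 2 (5.41%, background 9.97%) and 0 for the difference (background 6.57%). These shares lie near or below those of all genes. Differences over both experiments ranged from -0.11 (Hoxd3) to 0.14 (Hoxd4), with a median SE of 0.0461.

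Hoxd4, a group 4 gene of the caudal hindbrain whose expression is set by retinoic acid, had the smallest p. In experiment 1 it was at 5.41 and 5.35 on the ethanol arrays and at 5.26 and 5.25 on the control arrays. In experiment 2 it was at 5.32, 5.47 and 5.39 on ethanol arrays against 5.19, 5.23 and 5.30 on control arrays. Every ethanol array was above every control array of its experiment, though in experiment 2 the gap between the nearest arrays was narrow. The difference over both experiments was 0.14 ± 0.042 (SE; limma adjusted p = 0.311), with 0.12 in experiment 1 and 0.15 in experiment 2. It kept its sign and stayed between 0.10 and 0.16 under 19 alternatives, with adjusted p from 0.194 to 0.554.

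Hoxd3, its neighbour in the cluster, went the other way. Its values were 5.65 and 5.58 on the ethanol and 5.63 and 5.79 on the control arrays of experiment 1, and 5.58, 5.65 and 5.59 against 5.63, 5.72 and 5.81 in experiment 2. The groups overlapped in both experiments, by 1 array each. The difference was -0.11 ± 0.047 (limma adjusted p = 0.395) over both, -0.10 in experiment 1 and -0.11 in experiment 2. Between Hoxd8 and Hoxd3 in RefSeq's order lies Hoxd3os1, a noncoding RNA gene named as the opposite strand of Hoxd3, which had the smallest p of the 12 other transcripts of the clusters measured. It was at 5.65 and 5.61 on the ethanol against 5.36 and 5.36 on the control arrays of experiment 1, and at 5.56, 5.55 and 5.55 against 5.46, 5.32 and 5.53 in experiment 2. The ethanol arrays were the higher in both (0.18 ± 0.049, limma adjusted p = 0.306). A second probe set of the same RNA differed by 0.02 ± 0.046, so its probe sets disagree.

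Hoxb1, the group 1 gene that marks rhombomere 4 of the embryonic hindbrain, was at 6.23 and 6.26 on the ethanol arrays of experiment 1 and at 6.10 on both control arrays. In experiment 2 it was at 6.18, 6.14 and 6.33 on ethanol and at 6.12, 6.07 and 6.20 on control arrays. The groups were apart in experiment 1 and overlapped in experiment 2. The difference was 0.11 ± 0.046 over both experiments (limma adjusted p = 0.375) and 0.15 ± 0.074 in experiment 1 (limma adjusted p = 0.597).

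Hoxd13, the group 13 gene of digits and genitalia, was at 5.76 on both ethanol arrays against 5.68 and 5.61 in experiment 1, and at 5.70, 5.74 and 5.81 against 5.58, 5.63 and 5.76 in experiment 2. The groups were apart in experiment 1 and overlapped in experiment 2 (0.10 ± 0.045 over both, limma adjusted p = 0.388). Hoxb9, a thoracic gene, was at 6.76 and 6.52 on the ethanol and 6.44 and 6.49 on the control arrays of experiment 1, a difference of 0.17 ± 0.088 (limma adjusted p = 0.599). It rested largely on ethanol array 1: without it the difference was 0.05. In experiment 2, where ethanol arrays read 6.59, 6.53 and 6.60 and control arrays 6.49, 6.46 and 6.65, the groups overlapped.

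Hoxa5, a gene of the caudal hindbrain, the neck and the lung, had the second smallest p in experiment 2, after Hoxd4. Its ethanol arrays were at 5.58, 5.73 and 5.57 and its control arrays at 5.63, 5.83 and 5.97, so 2 of the 3 ethanol arrays lay below all controls and the groups overlapped. The difference was -0.18 ± 0.081 (limma adjusted p = 0.480). In experiment 1 the same gene read 5.69 and 5.76 on ethanol and 5.71 on both control arrays, a difference of 0.01. Hoxb5, its group 5 paralog, differed by -0.21 ± 0.141 in experiment 2 and 0.10 in experiment 1. In both genes control array 3 was the highest array of experiment 2, and without it Hoxa5 differed by -0.10 there and Hoxb5 by -0.04.

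**Figure D2:**
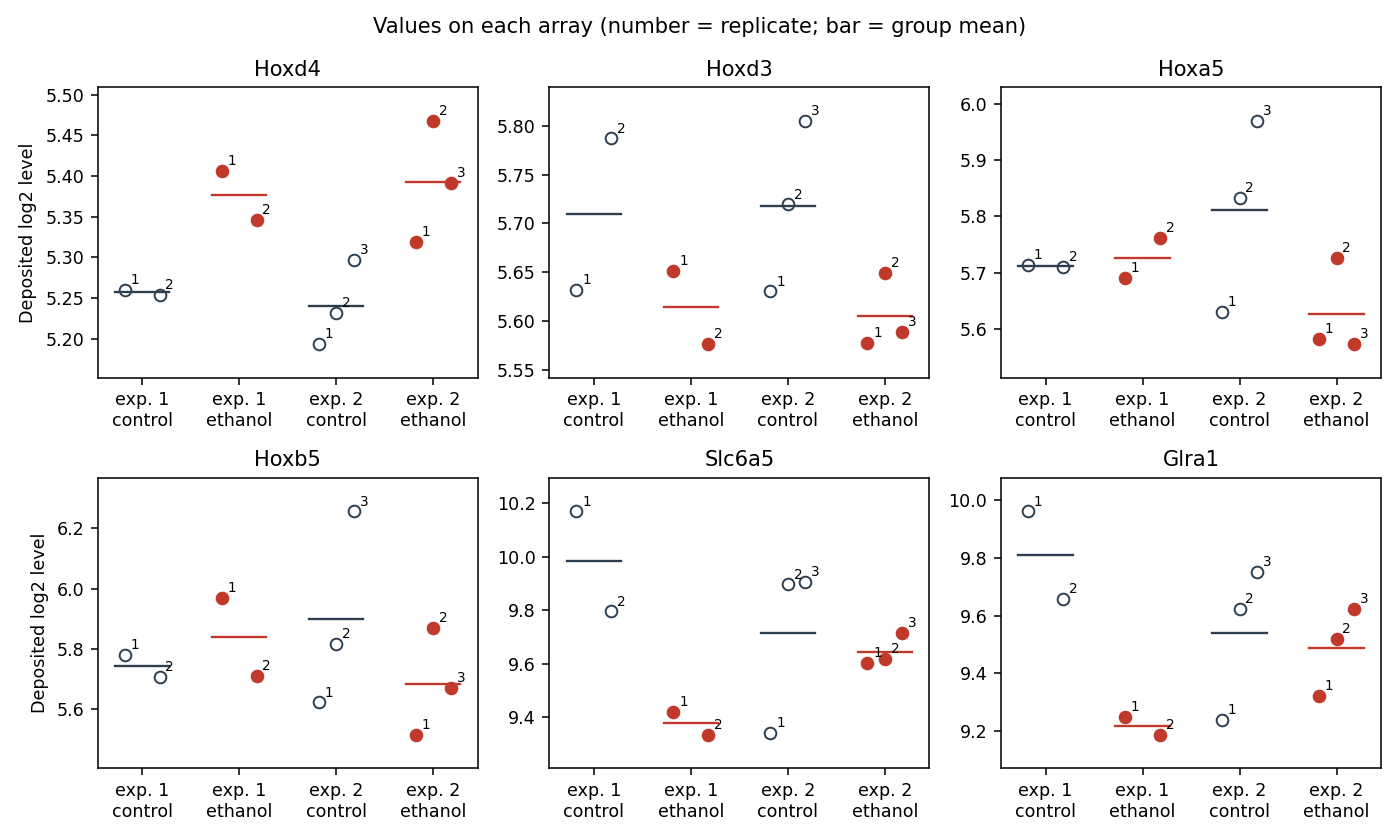
Deposited log2 level (vertical axis, a different range in each panel) on each array for Hoxd4, Hoxd3, Hoxa5 and Hoxb5, and for Slc6a5 and Glra1, markers of glycinergic transmission in the hindbrain and spinal cord. Points are arrays with their replicate number, filled for ethanol and open for control, and bars are group means. In experiment 2, control array 3 is the highest for Hoxa5 (5.97) and Hoxb5 (6.26), and control array 1 is the lowest for Slc6a5 (9.34).

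Markers of the hindbrain are set beside these values. Of 22 markers listed for this tissue 19 were measured, and 5 were above the 95th percentile of the genes not used in brain. Their mean level ran from 6.54 to 6.58 on the ethanol and from 6.63 to 6.66 on the control arrays of experiment 1, and from 6.56 to 6.60 against 6.55 to 6.70 in experiment 2. Control array 3 was the highest of experiment 2 for this list (6.70) and for spinal motor markers (6.11), and control array 1 the lowest for the hindbrain list. Slc6a5, the glycine transporter of hindbrain and spinal neurons, was at 9.42 and 9.34 on ethanol and 10.17 and 9.80 on control arrays of experiment 1. In experiment 2 it was at 9.60, 9.62 and 9.71 against 9.34, 9.90 and 9.91. Its control arrays of experiment 2 were thus spread to both sides of the ethanol arrays, and the part of hindbrain content in the Hox values was not tested. Over both experiments 5 of the 19 markers were higher and 14 lower on ethanol arrays, with a median of -0.03. The background was 45.6% of all genes higher. At an unadjusted p under 0.05 (limma), 0 markers were higher and 4 were lower (Irx2, Slc5a7, Slc6a5 and Glra1). Of all 21789 gene probe sets, 1029 were higher and 1674 lower at that threshold. Past an adjusted p of 0.05 were 0 of the 19.

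The direction of the Hox values followed that of dim probe sets in general. Of the 37 members, 28 (75.7%) had a higher value on ethanol arrays over both experiments, against a background of 45.6% of all genes and 79.3% of the dimmest 25%; the count was 17 after quantile normalization, 20 with array medians set equal and 17 with the arrays centred on the dimmest 25%. In experiment 1 the count was 27 (73%, background 48.2%, dimmest 25% of probe sets 73%), and 19, 26 and 18 under those scalings in the same order. In experiment 2 it was 24 (64.9%, background 45.1%, dimmest 25% of probe sets 69.5%), and 17, 16 and 19 under them. The median difference over both experiments was 0.03 for the members, 0.04 for the dimmest 25%, 0.06 for the 254 probe sets of genes not used in brain (211 of them higher) and -0.01 for all genes. The members' shares lie near those of the dimmest 25%, and no direction particular to the Hox genes can be read from them.

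**Figure D3:**
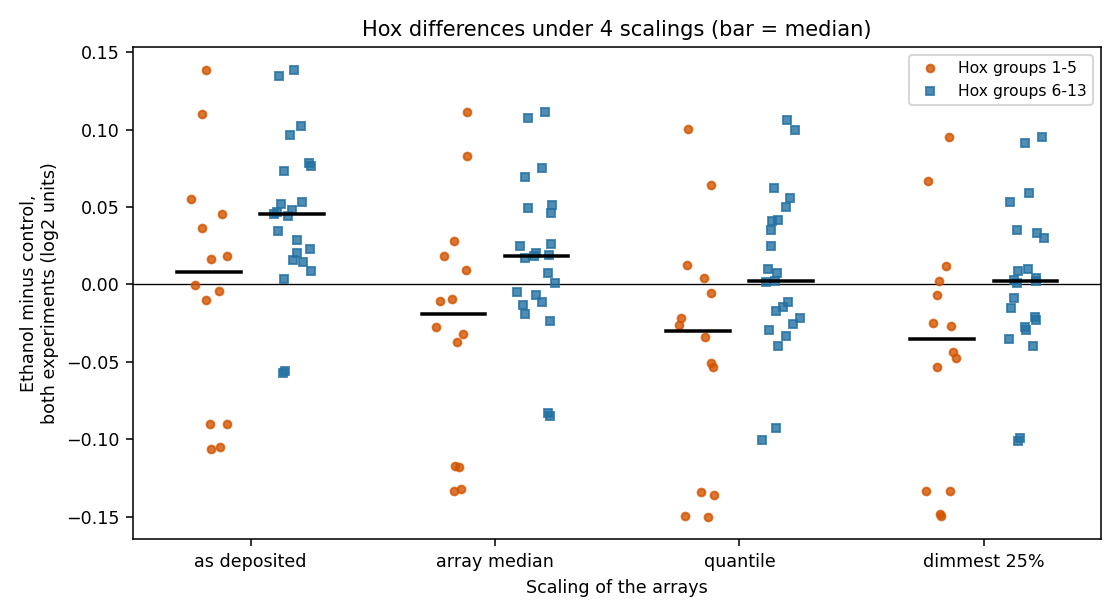
Ethanol minus control over both experiments in log2 units (vertical axis) for each Hox gene, under 4 scalings of the arrays (horizontal axis), with paralog groups 1 to 5 as circles and 6 to 13 as squares. Black bars are medians: as deposited they are 0.01 and 0.05, and after quantile normalization -0.03 and 0.00.

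The paralog ranges differed in their counts. In the trunk range 21 of 23 genes (91.3%) were higher on ethanol arrays over both experiments, and in the hindbrain range 7 of 14 (50%); after quantile normalization these were 13 and 4, with array medians set equal 15 and 5, and with centring on the dimmest 25% 13 and 4. Of the dimmest 25%, 79.3% were higher as deposited, a share between those of the ranges (all genes 45.6%). The median differences as deposited were 0.05 for the trunk and 0.01 for the hindbrain range, and 0.04 for the dimmest 25%. Within experiment 1 the ranges had the same median, 0.06 (11 of 14 hindbrain and 16 of 23 trunk genes higher). Within experiment 2 they were -0.03 for the hindbrain range (5 of 14 higher) and 0.05 for the trunk range (19 of 23 higher). For the dimmest 25% the median was 0.05 in experiment 1 (73% higher) and 0.03 in experiment 2 (69.5% higher). Single arrays moved the values of the ranges. Without ethanol array 1 of experiment 1 the medians there were 0.05 for the hindbrain range (9 of 14 higher) and -0.01 for the trunk range (9 of 23 higher). Without control array 3 of experiment 2 the hindbrain range turned to 8 of 14 higher there, with a median of 0.01, and to 11 of 14 over both experiments. After quantile normalization the medians were 0.01 and 0.02 in experiment 1 (7 and 12 higher) and -0.07 and 0.01 in experiment 2 (4 and 13 higher). The contrast between the experiments was not tested.

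The values were also taken array by array. For each array the median deviation of the hindbrain genes from the control mean of the experiment was set against that of the trunk genes. In experiment 1 the hindbrain median was 0.101 and 0.0513 on the ethanol arrays, and the trunk median 0.0923 and -0.0121. In experiment 2 the hindbrain median was -0.00994, -0.0395 and 0.0478 on the ethanol arrays and -0.0549, -0.00391 and 0.0770 on the control arrays. The trunk median was 0.0176, 0.0316 and 0.0743 against -0.00653, -0.0184 and 0.0341. Both ranges were therefore high on ethanol array 1 of experiment 1 and on ethanol array 3 and control array 3 of experiment 2, and in experiment 2 the hindbrain median spanned more on the control than on the ethanol arrays.

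The hindbrain minus trunk value was 0.0363 ± 0.0384 (SD, n = 2) on ethanol and 0.00 ± 0.00412 (n = 2) on control arrays of experiment 1, a shift of 0.0363. The control mean of 0.00 there is fixed by the calculation, since deviations are from the mean of these same 2 arrays. In experiment 2 it was -0.0417 ± 0.0255 (n = 3) on ethanol and 0.00305 ± 0.0467 (n = 3) on control arrays, a shift of -0.0448. Each shift was near the pooled SD between arrays (0.0273 and 0.0376). Their signs were opposite as medians over genes, but not as means over genes, where they were -0.00812 and -0.0670. Where the boundary was set mattered in experiment 2: with groups 1 to 4 against 5 to 13 the shift was -0.00491, and without control array 1 it was -0.0887. In experiment 1 it was 0.00743 without control array 1.

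**Figure D4:**
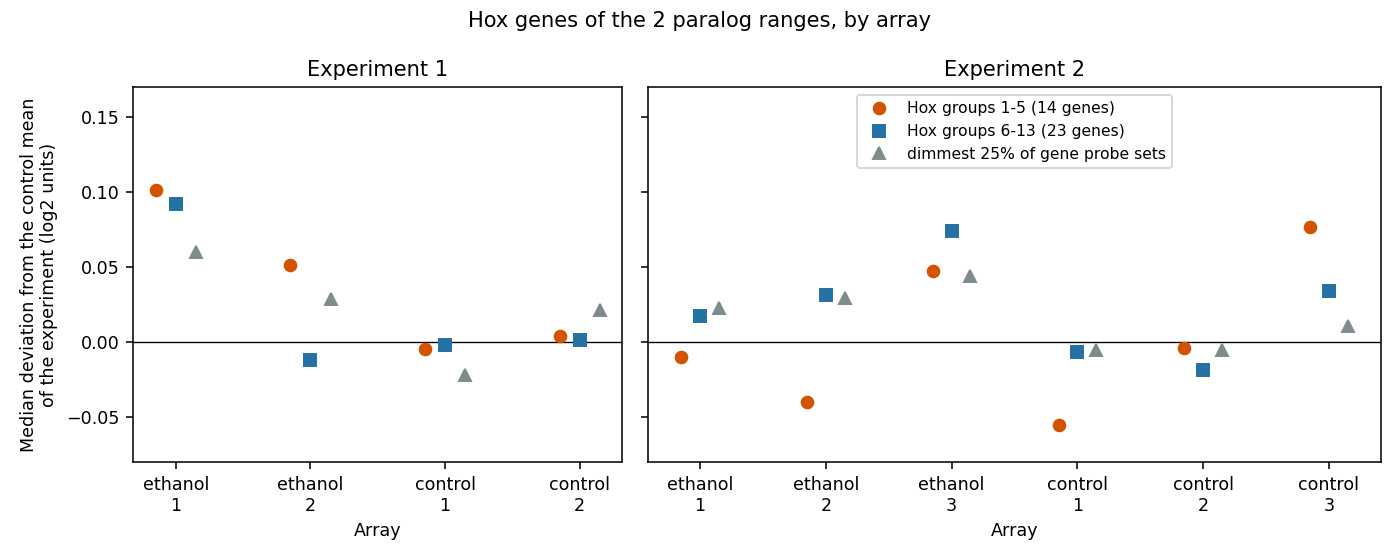
Median deviation from the control mean of the experiment in log2 units (vertical axis) on each array (horizontal axis), for 14 Hox genes of groups 1 to 5, 23 of groups 6 to 13 and the dimmest 25% of gene probe sets. Ethanol array 1 of experiment 1 is high for both ranges (0.101 and 0.0923), and control array 3 of experiment 2 has the highest hindbrain value of its experiment (0.0770).

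Array 1 of the ethanol group in experiment 1 and control array 3 in experiment 2 held many of the extreme values. The former had the highest value of its experiment for 8 of the 14 hindbrain and 14 of the 23 trunk genes, and the latter for 8 hindbrain and 5 trunk genes. On ethanol array 3 of experiment 2, 4 hindbrain and 11 trunk genes were the highest. The median deviation of the dimmest 25% of probe sets was also the highest of its experiment on both of these ethanol arrays (0.0602 and 0.0439). On control array 3 of experiment 2 it was 0.0111. Such counts of highest values were not made for other probe sets, so they do not set the Hox genes apart from dim signal. Hoxd12, a gene of the limb and the posterior trunk, is an example for ethanol array 1 of experiment 1. It was at 5.60 and 5.08 on the ethanol and 5.12 and 5.21 on the control arrays of experiment 1.

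The experiments, which share no arrays, gave the same sign for 22 members. Of these, 18 were higher on ethanol arrays in both (4 hindbrain, 14 trunk) and 4 lower in both (2 and 2). Of the dimmest 25% of probe sets, 73% were higher in experiment 1 and 69.5% in experiment 2. The share of them with the same sign in both was not counted, so no agreement particular to the Hox genes can be read. Of the other members, 9 were higher in experiment 1 and lower in experiment 2, 7 of them in the hindbrain range. Another 6 were lower and then higher, 5 of them in the trunk range. Hoxa3, Hoxb4, Hoxa5, Hoxb5 and Hoxc5 were among the 9, with differences of 0.11, 0.10, 0.01, 0.10 and 0.08 in experiment 1 and -0.04, -0.04, -0.18, -0.21 and -0.07 in experiment 2. The difference between experiments was -0.15 ± 0.073 for Hoxc5, -0.15 ± 0.093 for Hoxa3 and -0.20 ± 0.127 for Hoxa5. With limma adjusted p of 0.774, 0.840 and 0.840, none passed.

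**Figure D5:**
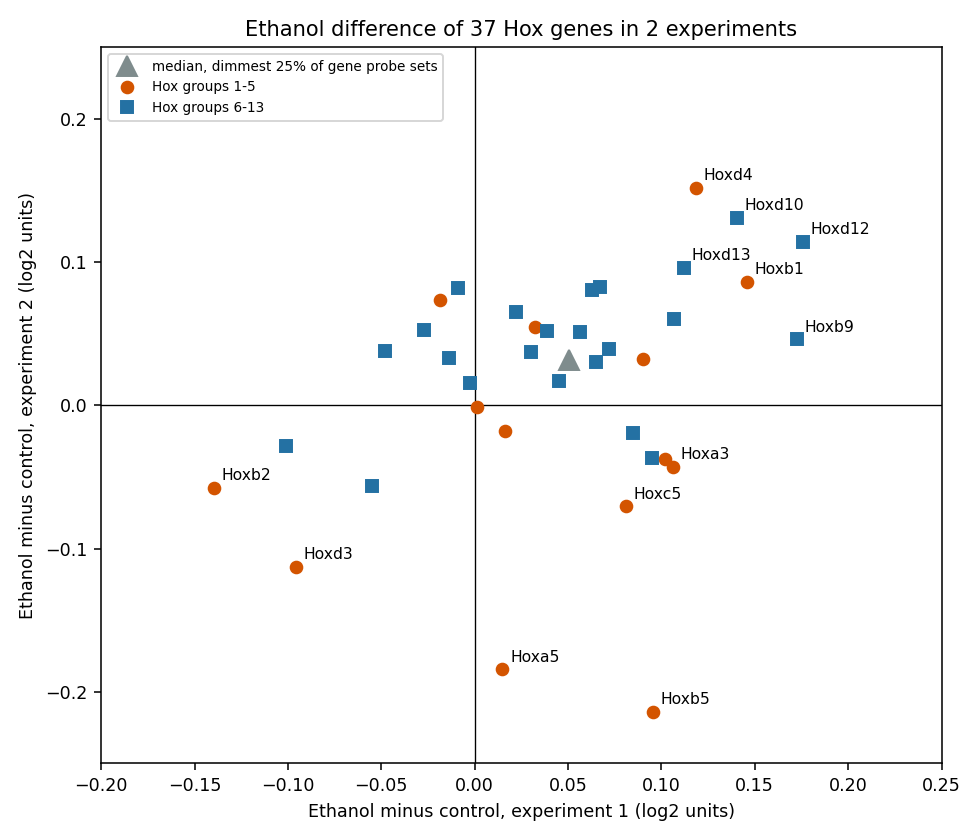
Ethanol minus control in experiment 1 (horizontal axis) against experiment 2 (vertical axis), in log2 units, for the 37 Hox genes, with circles for groups 1 to 5 and squares for groups 6 to 13. The grey triangle is the median of the dimmest 25% of gene probe sets. Hoxd4 lies at 0.12 and 0.15, Hoxd3 at -0.10 and -0.11, and Hoxb5 at 0.10 and -0.21.

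Counts of genes whose ethanol and control arrays did not overlap were set beside the background. In experiment 1, with 2 arrays against 2, 15 of the 37 were apart (40.5%, background 34.3%), 12 with ethanol higher (32.4%, background 15.1%) and 3, Hoxb2, Hoxc12 and Hoxd11, with ethanol lower (8.11%, background 19.2%). In experiment 2, 7 were apart (18.9%, background 19.2%), 6 with ethanol higher (16.2%, background 7.62%) and 1, Hoxc5, with ethanol lower (2.7%, background 11.6%). Of the dimmest 25%, 73% were higher on ethanol arrays in experiment 1 (all genes 48.2%) and 69.5% in experiment 2 (all genes 45.1%). The shares apart within an experiment are set against all genes only. No direction particular to the Hox genes can be read from them. In opposite directions in the 2 experiments was 1 member, again Hoxc5 (background 1.95%). Apart and higher in both experiments were 3 members, Hoxb6, Hoxc8 and Hoxd4 (8.11%, background 1.47%, and 3.56% in the dimmest 25%), and apart and lower in both were 0 (background 2.82%). Hoxb6 was at 5.30 and 5.29 against 5.24 and 5.22, and at 5.25, 5.28 and 5.30 against 5.24, 5.25 and 5.25. Hoxc8, a thoracic gene, was at 5.20 and 5.12 against 5.07 and 5.11, and at 5.15, 5.14 and 5.20 against 5.10, 5.11 and 5.04. These are differences of 0.04 and 0.08 over both experiments, and that of Hoxb6 in experiment 2 turned to -0.01 with array medians set equal.

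Other transcripts of the clusters were as dim as the Hox genes. Of 20 noncoding RNAs and neighbouring genes listed, 12 were measured, 0 of them above the 95th percentile, and 8 were higher on ethanol arrays over both experiments (median 0.02). Of all genes 45.6% were higher, and of the dimmest 25% of probe sets 79.3%. At an unadjusted p under 0.05 (limma, both experiments), 2 of the 12 were higher, Hoxd3os1 and Mir196a-1, and 0 lower. In experiment 1 these counts were 3 and 0, and in experiment 2 they were 0 and 1. Of all 21789 gene probe sets, 1029 were higher and 1674 lower at that threshold over both experiments. Mir196a-1 was at 6.04 and 5.75 against 5.60 and 5.65 in experiment 1 and at 5.85, 5.77 and 5.84 against 5.72, 5.68 and 5.70 in experiment 2, so its groups were apart in both (0.18 ± 0.056, limma adjusted p = 0.311). Of all genes 1.47% were apart and higher in both experiments, and of the dimmest 25% of probe sets 3.56%. Mir196a-2, which carries the same mature 5p sequence as Mir196a-1 but lies in the Hoxc cluster, differed by 0.19 ± 0.117. Of the others with a sequence above, Mir196b differed by 0.01, Mir10b by 0.05 and Mir10a by -0.04. These arrays read the region around a microRNA precursor from total RNA, not the mature microRNA.

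Among partners and regulators of Hox proteins, cofactors and chromatin genes were mostly bright and had mostly lower values on ethanol arrays. So did bright genes in general: of 10894 probe sets above the median level, 2464 were higher. At an unadjusted p under 0.05 (limma, both experiments), 1029 of all 21789 gene probe sets were higher and 1674 lower. Of 9 Pbx, Meis and Pknox cofactors 8 were measured and 7 were above the 95th percentile. Over both experiments 1 of the 8 was higher (median -0.07), and only Meis3 passed an unadjusted p of 0.05, at -0.14 ± 0.051. Of 35 Polycomb and trithorax genes, which keep Hox genes silent or active, 29 were measured and 27 were above the 95th percentile. Over both experiments 7 of the 29 were higher (median -0.04). In experiment 1 the count was 3 (median -0.08), and in experiment 2 it was 12 (median -0.005). The unadjusted threshold over both experiments was passed by Suz12 (-0.12 ± 0.046), a core subunit of Polycomb repressive complex 2. Ash2l (-0.12 ± 0.048), a subunit of histone H3 lysine methyltransferases, also passed it. Of 14 upstream regulators, including retinoic acid receptors and enzymes and Cdx genes, 12 were measured, only 3 were above the 95th percentile, and 5 were higher (median -0.02). Egr2 (mean level 6.97, under that percentile), which switches on group 2 Hox genes in the embryo and responds to neuronal activity in the adult, differed by 0.62 ± 0.237. No gene of these lists passed an adjusted p of 0.05.

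Across the series, array medians lay between 6.99 and 7.05 and the correlation between arrays between 0.989 and 0.996. Markers of the pituitary, a gland that can remain attached to a dissected brain, had mean levels of 8.10 and 7.23 on the ethanol and 5.63 and 5.77 on the control arrays of experiment 1. Ethanol array 2 of experiment 2 was also high (8.68; the other 5 arrays 6.14 to 6.57). Cerebellar markers, also of hindbrain origin, had 1 of 15 higher on ethanol arrays over both experiments, with a median of -0.20. The median was -0.34 in experiment 1 and -0.11 in experiment 2. At an unadjusted p under 0.05 (limma), 9 were lower over both experiments, 8 in experiment 1 and 0 in experiment 2. Of all 21789 gene probe sets, 1674, 1074 and 1348 were lower at that threshold in the same order. The part of tissue composition in the Hox differences was not tested.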

How the data were processed

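Values were the authors' deposited log2 expression levels of 35556 probe sets on 10 arrays, hybridized from 200 ng of RNA per the labels' protocols. The submitters' processing notes name Partek 6.6. Which background correction, normalization and genome build were used is not given in the sources used here. Each probe set's mean over experiment 1 equalled that over experiment 2 within 5.83e-05, so levels were not compared between experiments. Precision is limited by the 4 and 6 arrays.

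The platform annotation listed 23410 probe sets, of which 21789 had a single symbol and 1621 several; 12146 were not listed. All 37 member symbols matched RefSeq through Entrez identifiers. Each gene was represented by its probe set of highest mean.

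Ethanol minus control was fitted with limma 3.58.1 (R 4.3.3): terms for experiment and treatment over both experiments, and a mean per group for each experiment and for the difference (experiment 2 minus experiment 1). Adjustment was Benjamini-Hochberg over 21789 probe sets. The procedure was tested on simulated data. Values on every array were given for up to 3 members of smallest unadjusted p in each comparison; Hoxd3 over both experiments, Hoxb5, Hoxb6, Hoxc8, Hoxd12, Mir10a and Mir196b were added after their values were seen. Up to 4 genes per list were named by smallest p. The members and lists were chosen with earlier results of these data known. Alternatives were other scalings, filters, variance settings, boundaries, and each array left out.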

Additional observations from a re-analysis of the deposited data

Results flagged for a closer look

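Hoxc5, a group 5 gene of the neck region, moved in opposite directions in the experiments. Its values were 5.58 and 5.56 on the ethanol and 5.49 and 5.48 on the control arrays of experiment 1, where both ethanol arrays were above both controls. In experiment 2 they were 5.51, 5.47 and 5.50 on ethanol and 5.55, 5.57 and 5.57 on control arrays, where all 3 ethanol arrays were below all controls. The difference between the experiments was -0.15 (limma adjusted p = 0.774), which did not pass the threshold, and 1.95% of all gene probe sets were apart in opposite directions in the same way. Groups of 2 and 3 arrays are too small for the check of single outlying arrays.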

How the results depend on the processing

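The count of 0 Hox genes past an adjusted p of 0.05 stayed at 0 in the 4 comparisons under every alternative that was run. None of the 12 differences of members named by smallest p changed sign. The differences added later were not among these 12, and that of Hoxb6 in experiment 2 changed sign with array medians set equal. The number of members higher on ethanol arrays over both experiments fell from 28 to 17 after quantile normalization and to 17 after centring on the dimmest 25% of probe sets, an alternative chosen after seeing the data. With only probe sets above the 25th percentile of mean level, 6 members were left, of which 5 were higher over both experiments, 5 in experiment 1 and 5 in experiment 2. With a filter at the median level no member was left, and no hindbrain member was above the 95th percentile of genes not used in brain, so those alternatives gave no value. The hindbrain minus trunk shift of experiment 1 was -0.00812 as a mean over genes, a change of sign. That of experiment 2 was -0.00491 with groups 1 to 4 against 5 to 13. Leaving out each array in turn gave 0 to 0 members called in each comparison, 25 to 31 members higher over both experiments, 18 (without ethanol array 1) to 29 in experiment 1 and 22 to 27 in experiment 2, and shifts from 0.00743 to 0.0634 in experiment 1 and from -0.0887 to -0.0266 in experiment 2. The replicate numbers gave no clear pairing of the arrays, and so few correlations cannot exclude pairing. Same-numbered deviations correlated at -0.0521 in experiment 1, where 2 arrays per group fix the other pairs at 0.0521. In experiment 2 same-numbered correlations ran from -0.146 to 0.230 and the others from -0.228 to 0.209. With a replicate block 0 members passed and 2638 gene probe sets had an unadjusted p under 0.05 over both experiments, against 2703. Without ethanol array 1 of experiment 1, 235 genes passed in experiment 1 and 94 for the difference, none of them a Hox gene; 1 ethanol array is then left in experiment 1 and is assumed to vary like the other groups, so these are not replicated differences. Where the arrays are this dim, signal over background limits what can be read of the Hox genes; the cause of the changes under other settings was not tested.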
